A study of Mus musculus with 9 samples.

Results

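Lungs of ovalbumin-challenged mice were compared with lungs of saline-treated mice, using 6 of the 9 libraries of the study: OVA replicates 1 to 3 against Naive replicates 1 to 3. All mice were BALB/c males that arrived at 6 weeks of age and were acclimatised for 1 week. For OVA mice, days 0, 7 and 14 brought an injection of 50 µg ovalbumin mixed with 1 mg of the adjuvant aluminium hydroxide, and 400 µg ovalbumin was given through the nose once a day on days 21 to 27. The Naive mice received saline by the same routes, and lungs of both groups were taken on day 28. The remaining 3 libraries, from mice that also received PM2.5, entered only 2 of the alternatives described at the end. The measurement was poly(A) mRNA of lung tissue in FPKM, the number of sequenced fragments of a gene scaled to its length and to the depth of the library. The labels do not say whether each library came from 1 mouse or from pooled mice, and the p-values measure the spread between these libraries.

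Ovalbumin with alum, followed by ovalbumin in the airway, is a common mouse model of allergic asthma. T helper 2 cells in this model release interleukins that recruit eosinophils, raise antibody production and drive mucus secretion by the airway epithelium. Interferon-stimulated genes, cytotoxic lymphocytes, epithelial cilia and oxidant defence are other programmes of the lung that bulk mRNA can register. In bulk tissue, fewer cells of a type and less RNA per cell cannot be told apart.

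Of 12586 genes tested, 966 differed between OVA and Naive lungs at an adjusted p under 0.05 (limma with Benjamini-Hochberg adjustment over all tested genes). That is 7.68% of the tested genes: 427 rose in OVA (3.39%) and 539 fell (4.28%). The rise was at least 2-fold for 312 genes and at least 4-fold for 19, and the fall was at least 2-fold for 272 genes and at least 4-fold for 32, on the log2(FPKM + 0.5) scale. In all 966 the 3 OVA libraries lay on one side of the 3 Naive libraries, as did 4292 of the tested genes in all (34.1%), of which 1412 were higher (11.2%) and 2880 lower (22.9%). The median of all tested genes was −0.11 on the log2 scale, so most genes were shifted slightly down, and the changes below are best read against that value. The split of calls moved with the scaling. Higher genes made up 44.2% of the calls as reported, 55.0% after median-ratio scaling and 56.8% after quantile normalization. When each library was brought to a common sum they made up 15.0%, and the median of all genes was −0.45. The club cell gene Scgb1a1 alone made up 17.9%, 23.8% and 28.1% of the FPKM sum in Naive replicates 1 to 3. In OVA replicates 1 to 3 it made up 45.9%, 39.5% and 29.0%, so a common sum depends in part on this gene. With a common sum, 11 of the 13 cytotoxic genes described below fell instead of 7, 13 of the 19 immediate early genes instead of 9 and 12 of the 16 endothelial genes instead of 4, while 1 of the 17 NRF2 genes rose instead of 4. After quantile normalization 5 immediate early genes fell and 2 xenobiotic genes rose instead of 4.

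The number of calls rested on single libraries. It was 46 without Naive replicate 1, 671 without Naive replicate 2, 23 without Naive replicate 3, 435 without OVA replicate 1, 693 without OVA replicate 2 and 309 without OVA replicate 3. The genes called in all 6 of these fits were 4 that rose and 18 that fell. They were singled out after their values had been seen. The 4 that rose were Jchain, Pigr, Cyp1b1 and Fermt1. The 18 that fell included the interferon-stimulated genes Isg15, Ifi27l2a, Irf7, Rtp4, Xaf1 and Phf11d, the cytotoxic cell genes Gzma, Gzmb and Ncr1, the mast cell chymase Cma1, and Nr4a1, Nrep, Aplnr, Tmem88, Scn3b, Hlx, Ces2e and Lum. Of the 92 named genes that passed the test, 79 lost the call in at least 1 of the 6 fits, and all 79 lost it without Naive replicate 3. For called genes below, the number of these 6 leave-one-out fits that called the gene is given as fits.

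**Figure D1:**
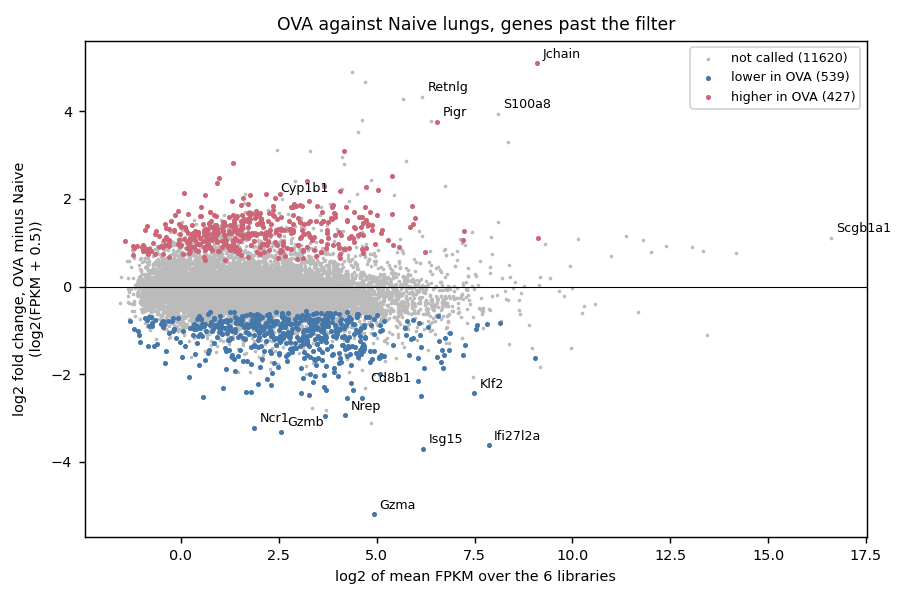
Each point is 1 of the 12586 genes tested, placed by the log2 of its mean FPKM over the 6 libraries and by its log2 fold change, OVA minus Naive. Red points are the 427 genes called higher in OVA and blue points the 539 called lower, and the neutrophil genes S100a8 and Retnlg lie high on the plot among the genes not called.

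The libraries were similar in depth, with 14384472 to 15748097 whole fragments recovered from the FPKM steps. Across genes, log2 values correlated at 0.955 to 0.974 between Naive libraries and at 0.926 to 0.959 between OVA libraries. Between a Naive and an OVA library they correlated at 0.872 to 0.949, which overlaps the range within OVA. OVA replicate 2 was closer to Naive replicates 2 and 3 (0.949 and 0.943) than to OVA replicate 1 (0.942). Lung identity was clear in all 6: the alveolar surfactant gene Sftpc was at 3263 to 19610 FPKM and the club cell secretoglobin Scgb1a1 at 42600 to 194300 FPKM. Marco, a macrophage receptor, was at 0.0303 to 1.11 FPKM. OVA replicate 1 had the highest Scgb1a1 and the lowest Sftpc of the 6, and Scgb1a1 took 9.25%, 6.71% and 3.76% of the fragments in OVA replicates 1, 2 and 3, against 2.03%, 3.08% and 3.70% in Naive.

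Some libraries stood apart from both others of their group. Naive replicate 1 held thymus transcripts, with the recombinase gene Rag1 at 79.8 FPKM against 0.0927 and 0.0864 in the other Naive libraries and 0 in all 3 OVA libraries. Dntt, which adds nucleotides at rearranging antigen receptor genes, was at 51.9 FPKM there against 0.0791 and 0.0614 in the other Naive libraries and 0 in OVA. The T cell co-receptor gene Cd8b1 was at 143 FPKM against 2.76 and 4.28 in Naive and 2.72, 1.63 and 2.18 in OVA. The 14 thymus genes summed to 518 FPKM in Naive replicate 1 and to 11.6 to 17.2 FPKM in the other 5 libraries. Of 11169 genes with a mean FPKM of at least 1, 62 were at least 4-fold higher in Naive replicate 1 than in both other Naive libraries, and 0 of those 62 were called in either direction. Genes picked in this way have a wide spread within their group and could hardly be called. The lack of calls among them therefore says little about how far other calls depend on that library. Of the thymus genes only 4 passed the filter, and 0 were called, beside 7.68% of all tested genes.

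Naive replicate 3 stood apart by adipose and atrial transcripts. The 10 adipose genes summed to 184.5 FPKM there and to 3.06 and 13.2 in the other Naive libraries, with 7.20 to 14.2 in OVA. The 11 cardiac muscle genes summed to 296.5 FPKM in Naive replicate 3 and to 332.5 FPKM in OVA replicate 2, against 40.2 to 69.3 FPKM in the other 4 libraries. The atrial myosin light chain Myl7 was at 130 and 154 FPKM in those 2 libraries and at 0.236 to 6.58 FPKM in the others. Of the 24 genes at least 4-fold higher in Naive replicate 3 than in both other Naive libraries, 0 were called, and 0 of the 16 such genes of OVA replicate 2 were called. In OVA replicate 1, 39 genes were at least 4-fold lower than in both other OVA libraries, 0 of them called. Of the 17 genes at least 4-fold higher in OVA replicate 3 than in both other OVA libraries, 2 were called higher. These counts have the same limit, because the genes were picked for a wide spread within their group.

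**Figure D2:**
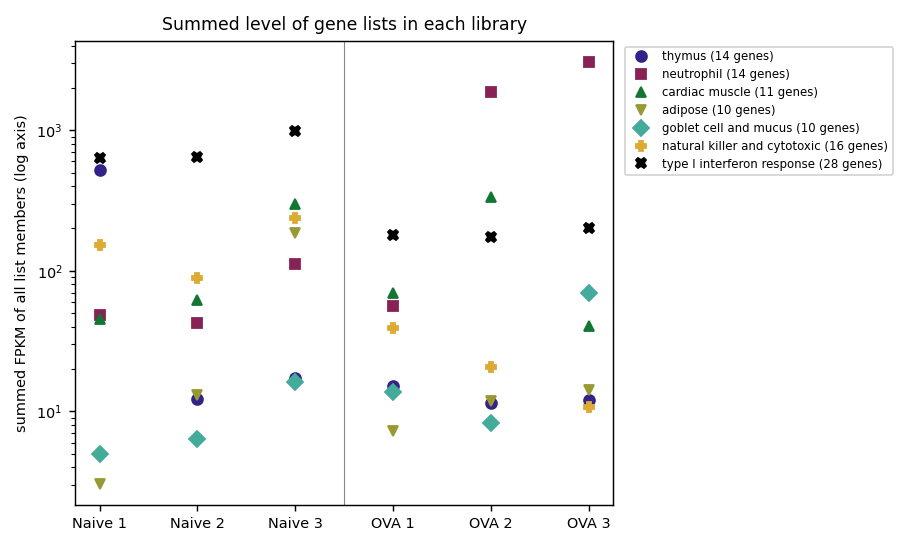
Summed FPKM of all listed members of 7 gene lists in each library, on a log axis, with 1 marker for each list and a line between the groups. Thymus genes stand out in Naive replicate 1 (518 FPKM), adipose genes in Naive replicate 3 (184.5 FPKM), and neutrophil genes are at 56.6 FPKM in OVA replicate 1 against 1885 and 3066 FPKM in OVA replicates 2 and 3.

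Interferon-stimulated genes were the list with the most genes lower in OVA. Type I interferons act through transcription factors that bind an element in the promoters of genes that limit viral growth. Of 28 type I interferon response genes tested, 24 fell in OVA and 0 rose, beside 4.28% of all tested genes that fell. The list median was −1.53 log2 units, and all 28 had negative fold changes. The list summed to 635.5 to 988 FPKM in Naive and to 174 to 203 FPKM in OVA libraries.

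Isg15, a ubiquitin-like protein, was at 123, 118 and 168 FPKM in Naive replicates 1 to 3 and at 10.5, 8.59 and 10.9 FPKM in OVA replicates 1 to 3. The groups were far apart and each was tight. The log2 fold change was −3.70 ± 0.19 (SE), with a limma adjusted p of 0.000704, and it was called in 6 of the 6 leave-one-out fits. Ifi27l2a, another interferon-induced gene, was at 374, 389 and 526 FPKM in Naive and at 34.2, 41.2 and 28.1 FPKM in OVA (−3.62 ± 0.22, limma adjusted p = 0.00094, 6 fits). Its reads may be shared with Ifi27, a gene that overlaps it in the annotation, because the library kit is not stated to keep strand.

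Irf7, the transcription factor that amplifies the interferon response, was at 7.32, 7.51 and 10.6 FPKM in Naive and at 1.49, 0.919 and 1.80 FPKM in OVA. It fell by 2.25 log2 units (limma adjusted p = 0.00787, 6 fits). The RNA-binding antiviral protein gene Ifit3 was at 88.0, 106 and 165 FPKM in Naive and at 12.5, 22.8 and 28.2 FPKM in OVA (−2.49 ± 0.34, limma adjusted p = 0.0162, 4 fits). Ifit1, of the same family, was at 27.2, 29.0 and 51.2 FPKM in Naive and at 5.02, 5.24 and 9.37 FPKM in OVA (−2.36 ± 0.31, limma adjusted p = 0.0162, 4 fits). In each of these genes Naive replicate 3 was the highest library, and the groups did not overlap. Bst2, a membrane protein that tethers budding virus, was at 141, 132 and 204 FPKM in Naive and at 48.3, 56.4 and 53.8 FPKM in OVA (−1.55 ± 0.21, limma adjusted p = 0.0162, 4 fits).

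Some members moved less. The signal transducer Stat2 fell by 1.41 log2 units (limma adjusted p = 0.018, 4 fits). The RNA sensors Ddx58 and Ifih1 fell by 0.78 and 0.84 log2 units, with limma adjusted p of 0.0333 and 0.0377, and were called in 0 of the 6 leave-one-out fits. The members not called were Oasl1, Oas2, Oas3 and the chemokine gene Cxcl10, with log2 fold changes of −1.08, −1.22, −0.59 and −0.67. The list count was 8 without Naive replicate 1, 21 without Naive replicate 2, 5 without Naive replicate 3, 17 without OVA replicate 1, 16 without OVA replicate 2 and 16 without OVA replicate 3.

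Among genes induced mainly by interferon gamma, 4 of 18 fell and 0 rose, with a median of −1.06, beside 4.28% of all tested genes that fell. After median-ratio scaling or quantile normalization 0 of the 18 were called, and with libraries brought to a common sum 17 were. The 4 were the transcription factor gene Irf1 (−0.91), the GTPase genes Irgm1 (−1.16) and Irgm2 (−1.31) and the immunoproteasome subunit Psmb9 (−1.20), with limma adjusted p of 0.0285, 0.0427, 0.0484 and 0.0492, in 2, 0, 0 and 1 fits. The count was 0 without Naive replicate 1, 0 without Naive replicate 3, 0 without OVA replicate 2 and 0 without OVA replicate 3. Cxcl9, a chemokine that interferon gamma induces, was at 1.91, 1.27 and 4.13 FPKM in Naive and at 4.99, 1.39 and 1.86 FPKM in OVA, with overlapping groups.

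The promoters of the 4 called interferon genes with the smallest p that carry the interferon-stimulated response element are shown because interferon-activated factors are known to drive such genes through it. The windows run from 250 bases before to 50 bases after the gene start on the gene's strand, from RefSeq on GRCm38.p6, while the expression table was made on GRCm39. Capitals mark the element, here 2 copies of GAAA with any 2 bases between them, or its reverse complement with 2 copies of TTTC, and matches that overlap each other are joined.
Isg15, chr4:156200769-156201068, minus strand: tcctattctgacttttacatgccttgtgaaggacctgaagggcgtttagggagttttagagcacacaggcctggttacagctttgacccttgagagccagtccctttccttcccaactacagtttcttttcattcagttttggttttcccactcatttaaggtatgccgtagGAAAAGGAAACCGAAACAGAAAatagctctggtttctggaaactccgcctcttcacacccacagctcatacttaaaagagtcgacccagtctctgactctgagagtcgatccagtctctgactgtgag
Ifit1, chr19:34640639-34640938, plus strand: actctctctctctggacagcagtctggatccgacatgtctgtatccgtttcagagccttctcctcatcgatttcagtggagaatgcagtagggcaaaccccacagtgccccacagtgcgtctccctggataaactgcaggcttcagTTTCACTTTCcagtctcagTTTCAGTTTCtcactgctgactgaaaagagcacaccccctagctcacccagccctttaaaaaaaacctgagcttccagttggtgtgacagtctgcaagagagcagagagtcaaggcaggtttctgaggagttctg
Bst2, chr8:71537423-71537722, minus strand: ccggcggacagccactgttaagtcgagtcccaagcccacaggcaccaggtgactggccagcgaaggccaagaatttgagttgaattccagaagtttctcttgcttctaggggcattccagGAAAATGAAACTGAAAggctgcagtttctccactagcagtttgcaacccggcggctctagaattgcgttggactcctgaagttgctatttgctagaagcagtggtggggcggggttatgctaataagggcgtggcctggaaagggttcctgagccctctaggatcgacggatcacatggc
Ifit3, chr19:34583279-34583578, plus strand: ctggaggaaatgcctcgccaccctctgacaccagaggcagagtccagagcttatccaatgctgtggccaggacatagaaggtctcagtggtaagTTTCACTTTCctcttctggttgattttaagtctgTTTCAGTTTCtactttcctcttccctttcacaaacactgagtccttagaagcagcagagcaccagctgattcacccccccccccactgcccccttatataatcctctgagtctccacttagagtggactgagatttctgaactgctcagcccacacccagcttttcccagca

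The Isg15 window held 3 overlapping matches, the first starting 78 bases before the gene start, and the other 3 windows held 2 each. Of the 28 tested interferon genes 23 had a promoter in the table. A gene was counted if any of its windows held the element. It was counted for 14 of the 23 genes (60.9%), including 12 of the 20 that fell. Among all 9945 tested genes with a promoter 389 held it, counted in the same way (3.91%). Counted by single window, 3.44% of the 32851 windows in the whole promoter set did. A match is a description of these letters. The list was made of genes known to respond to interferon, so the share describes the list and not the difference between the lungs.

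Natural killer and cytotoxic genes were also lower in OVA. Natural killer cells and cytotoxic T cells kill target cells with perforin and granzymes. Of 13 tested genes 7 fell and 0 rose, with a list median of −1.87, beside 4.28% of all tested genes that fell. Granzyme A (Gzma) was at 59.0, 31.0 and 88.6 FPKM in Naive and at 1.15, 1.36 and 0.624 FPKM in OVA. The lowest Naive library was more than 20 times the highest OVA library. The log2 fold change of −5.19 ± 0.37 (limma adjusted p = 0.00234, 6 fits) was the largest fall among the genes tested. Gzma overlaps Cdc20b in the annotation. Granzyme B (Gzmb) was at 13.1, 7.02 and 13.5 FPKM in Naive and at 0.435, 0.841 and 0.670 FPKM in OVA (−3.31 ± 0.27, limma adjusted p = 0.00327, 6 fits).

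Ncr1, the activating receptor NKp46, was at 6.76, 4.49 and 9.76 FPKM in Naive and at 0.587, 0.279 and 0.0465 FPKM in OVA (−3.22 ± 0.33, limma adjusted p = 0.00787, 6 fits). Its OVA values were all low, OVA replicate 3 the lowest. The pore-forming protein perforin (Prf1) fell by 2.41 log2 units, the transcription factor Tbx21 by 1.87, the granule protein Nkg7 by 1.87 and the lectin-like receptor Klre1 by 1.37, with limma adjusted p of 0.0182, 0.0345, 0.0374 and 0.0305, in 3, 2, 1 and 2 fits. The chemokine gene Ccl5 was at 42.5, 27.5 and 74.6 FPKM in Naive and at 22.3, 10.2 and 5.44 FPKM in OVA, and was not called (limma adjusted p = 0.0596). The list count was 3 without Naive replicate 1, 3 without Naive replicate 3, 3 without OVA replicate 3, 4 without OVA replicate 2, 7 without OVA replicate 1 and 8 without Naive replicate 2. The summed level of the 16 listed genes was 89.3 to 236.5 FPKM in Naive and 10.8 to 39.4 FPKM in OVA.

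Killer cell lectin-like receptors, whose near-identical members can share reads, had 4 of 10 tested genes lower and 1 higher. MHC class I genes, which also have near-identical copies, had 4 of 14 lower and 0 higher. The guanylate-binding proteins and interferon-inducible GTPases had 6 of 16 lower, with 3 after median-ratio scaling, 2 after quantile normalization and 16 with a common sum. Of all tested genes 4.28% were lower and 3.39% higher. With a common sum the lower counts were 6 for the lectin-like receptors and 9 for MHC class I. The counts of these 3 families were 0 without Naive replicate 1 and 0 without Naive replicate 3.

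Of 13 T cell genes tested, 0 were called, beside 7.68% of all tested genes. Their median of −0.49 became 0.55 without Naive replicate 1, the library with thymus transcripts. The T cell receptor subunit Cd3e was at 9.77, 0.609 and 1.68 FPKM in Naive and at 2.57, 1.12 and 1.31 FPKM in OVA. Naive replicate 1 alone was high, and the other Naive libraries overlapped the OVA libraries. The proliferation gene Mki67 was at 27.6, 4.19 and 5.15 FPKM in Naive and at 3.30, 1.70 and 6.28 FPKM in OVA. Of 17 DNA replication and mitosis genes 0 were called, beside the same 7.68%, and their median of −1.18 was −0.53 without Naive replicate 1.

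Plasma cell genes were higher in OVA. Plasma cells secrete antibody, and the joining chain links IgA or IgM units into polymers that the polymeric immunoglobulin receptor carries across the epithelium. Of 13 plasma cell genes tested 5 rose and 0 fell, beside 3.39% of all tested genes that rose, with a median of 0.59. The joining chain gene Jchain was at 27.6, 24.1 and 30.1 FPKM in Naive and at 1066, 480 and 1643 FPKM in OVA. Its log2 fold change of 5.10 ± 0.41 (limma adjusted p = 0.00327, 6 fits) was the largest rise among the genes called.

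The other 4 were Pou2af1, a B cell coactivator (2.29 ± 0.44, limma adjusted p = 0.0281, 1 fit), Tnfrsf17, the survival receptor BCMA (2.11 ± 0.40, limma adjusted p = 0.029, 1 fit), Derl3, of the endoplasmic reticulum (1.94 ± 0.41, limma adjusted p = 0.034, 1 fit), and Tent5c, a poly(A) polymerase (1.69 ± 0.24, limma adjusted p = 0.018, 4 fits). Pou2af1 was at 3.34, 2.57 and 4.802 FPKM in Naive and at 20.3, 9.43 and 34.8 FPKM in OVA. All 5 called genes had the same order of OVA libraries, replicate 3 above replicate 1 above replicate 2. Irf4, a factor needed for plasma cell formation, was at 0.929, 0.641 and 0.943 FPKM in Naive and at 3.47, 1.69 and 7.12 FPKM in OVA and missed the threshold (limma adjusted p = 0.0538). Xbp1 and Prdm1, other plasma cell regulators, were not called, at 0.42 and −0.33 log2 units. Of 10 B cell genes 0 were called, beside 7.68% of all tested genes. The plasma cell count was 1 without Naive replicate 1, 1 without Naive replicate 3, 7 without OVA replicate 2 and 2 without each of the other libraries. A search by symbol for immunoglobulin constant chains and variable segments found Jchain alone among the listed genes, so other chains were not examined.

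The receptor gene Pigr was at 6.19, 13.1 and 19.9 FPKM in Naive and at 208, 107 and 204 FPKM in OVA (3.76 ± 0.43, limma adjusted p = 0.0111, 6 fits). Every OVA library was more than 5 times the highest Naive library. Fcamr, an IgA and IgM receptor and the neighbour of Pigr on chromosome 1, was at 0.0893, 0.451 and 0.228 FPKM in Naive and at 2.69, 1.70 and 4.02 FPKM in OVA (2.09 ± 0.29, limma adjusted p = 0.0175, 4 fits). Slpi, a secreted inhibitor of neutrophil elastase, was at 7.18, 7.00 and 8.01 FPKM in Naive and at 28.4, 21.6 and 85.9 FPKM in OVA (2.27 ± 0.45, limma adjusted p = 0.0317, 2 fits). OVA replicate 3 was the highest for Fcamr and Slpi. Fcamr was below 0.5 FPKM in every Naive library, so it passed the filter through the OVA libraries alone.

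**Figure D3:**
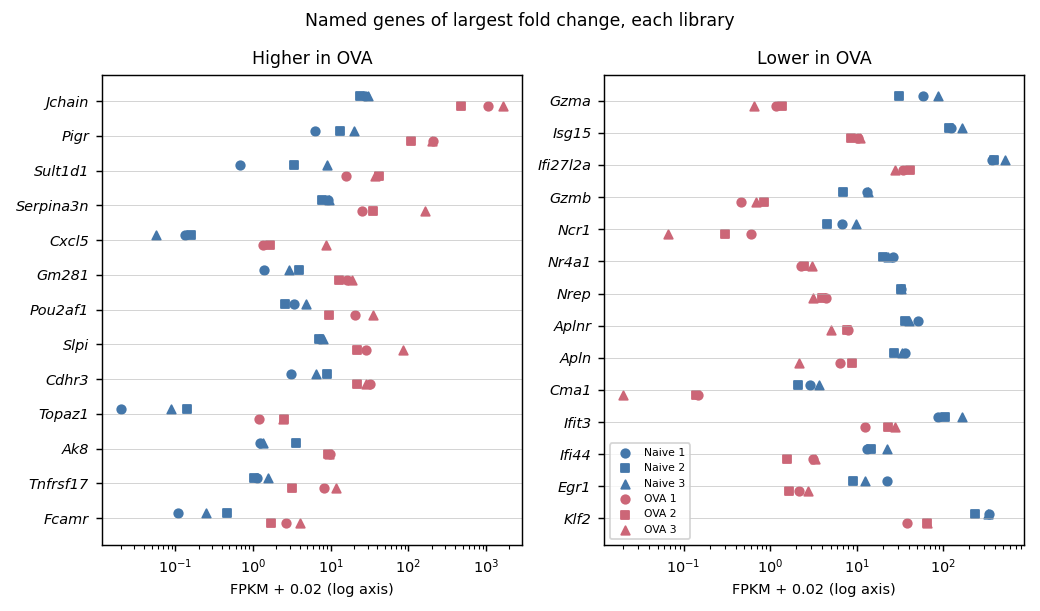
FPKM + 0.02 on a log axis in each of the 6 libraries for 13 genes of largest fold change higher in OVA and 14 lower, with Naive libraries in blue, OVA libraries in red and the marker shape giving the replicate. No gene has overlapping groups; Jchain runs from 24.1 to 30.1 FPKM in Naive and from 480 to 1643 FPKM in OVA.

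Genes of motile cilia were higher in OVA. Ciliated cells move mucus along the airway with axonemes driven by dynein motors. Over 3 lists, ciliated cell markers, dynein heavy chains and cilia and flagella associated proteins, 52 different genes were tested. Of these 23 rose and 0 fell, beside 3.39% of all tested genes that rose. The median was 1.20, and 51 of 52 were positive, beside 36.9% of all tested genes. Foxj1, the transcription factor that drives motile ciliogenesis, was at 25.1, 46.6 and 26.9 FPKM in Naive and at 102, 65.3 and 80.6 FPKM in OVA (1.35 ± 0.28, limma adjusted p = 0.0327, 2 fits). The outer arm dynein Dnah5 was at 2.00, 5.47 and 3.25 FPKM in Naive and at 14.0, 9.56 and 16.7 FPKM in OVA (1.83 ± 0.33, limma adjusted p = 0.0262, 2 fits). Naive replicate 2 was the highest Naive library for both, and the groups did not overlap.

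Other called cilium genes had changes of similar size. Dnah9 rose by 1.57, the axonemal assembly factor Ccdc40 by 1.53, Hydin of the central pair by 1.48 and Cfap44 by 1.64 log2 units, each called in 2 fits. Tppp3, a tubulin-binding protein of ciliated cells, was at 96.6, 122 and 111 FPKM in Naive and at 165, 109 and 75.1 FPKM in OVA, with overlapping groups. The count over the 3 lists was 0 without Naive replicate 1, 0 without Naive replicate 3, 2 without OVA replicate 1, 3 without OVA replicate 3 and 24 without either remaining library. Among the 14 genes of largest rise that passed the test at a mean of at least 1 FPKM, Cdhr3, an airway cadherin (2.18 ± 0.34), and Ak8, an adenylate kinase (2.12 ± 0.31), had limma adjusted p of 0.0182 and 0.018, each in 4 fits. Ak8 overlaps Spaca9 in the annotation. Ciliogenesis factors of the RFX family bind the X-box, searched on either strand as GTT, any base, CC, any 2 bases, GG, any base and AAC. It was in a promoter of 2 of 40 tested cilium genes (5.0%) and of 0.62% of all tested genes that had a promoter. Of the 20 cilium genes that rose and had a promoter, 0 held it.

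Club cell genes differed between the OVA libraries. Club cells are secretory cells of the small airways. Of 11 tested genes 2 rose, beside 3.39% of all tested genes. They were the tight junction gene Cldn10 (1.22, limma adjusted p = 0.0323, 2 fits) and the haptoglobin gene Hp (1.11, limma adjusted p = 0.0453, 0 fits). The count was 0 without Naive replicate 1, 0 without Naive replicate 3, 0 without OVA replicate 1, 0 without OVA replicate 2 and 1 without either remaining library. Scgb1a1 was at 42600, 64640 and 77600 FPKM in Naive and at 194300, 140900 and 79000 FPKM in OVA, and was not called (limma adjusted p = 0.338). OVA replicate 3 was close to Naive replicate 3. Scgb3a1, a secretoglobin of the larger airways, was at 4.86, 24.8 and 308.5 FPKM in Naive and at 16.6, 42.2 and 1238 FPKM in OVA, high in replicate 3 of both groups.

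Of 14 genes of xenobiotic metabolism 4 rose and 0 fell, beside 3.39% of all tested genes that rose. The list median of 0.85 was 0.46 without Naive replicate 1. Cyp1b1, a P450 that oxidises aromatic hydrocarbons and oestrogens, was at 1.69, 1.89 and 1.77 FPKM in Naive and at 9.92, 8.92 and 7.67 FPKM in OVA (2.02 ± 0.15, limma adjusted p = 0.00234, 6 fits). Both groups were tight. Cyp1a1, another target of the aryl hydrocarbon receptor, was at 5.99, 6.13 and 11.8 FPKM in Naive and at 1.88, 5.27 and 2.30 FPKM in OVA, lower in every OVA library and not called (−1.26, limma adjusted p = 0.0831). The aldehyde dehydrogenase Aldh3a1 rose by 1.84 and Cyp2s1 by 1.30 log2 units, with limma adjusted p of 0.036 and 0.042, in 0 and 1 fits. The xenobiotic count was 2 without Naive replicate 1, 3 without Naive replicate 2, 1 without Naive replicate 3, 1 without OVA replicate 1 and 2 without either remaining library.

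Of 17 genes of the NRF2 programme and metallothioneins 4 rose and 0 fell, beside 3.39% of all tested genes that rose. The list median was 0.47. The metal-binding Mt1 was at 9.19, 14.1 and 15.98 FPKM in Naive and at 34.4, 39.8 and 57.5 FPKM in OVA (1.71 ± 0.26, limma adjusted p = 0.0182, 4 fits). Thioredoxin reductase Txnrd1 was at 4.81, 5.03 and 4.73 FPKM in Naive and at 9.50, 9.97 and 8.32 FPKM in OVA (0.86 ± 0.14, limma adjusted p = 0.019, 4 fits). Glutathione reductase Gsr and glutathione peroxidase Gpx2 rose by 0.85 and 1.07 log2 units, in 4 and 0 fits. Hmox1, the haem oxygenase, was at 13.9, 19.99 and 15.2 FPKM in Naive and at 17.3, 14.5 and 20.8 FPKM in OVA, with overlapping groups. The count was 0 without Naive replicate 1 and 0 without Naive replicate 3, and 3 or 4 without each other library.

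Immediate early genes were lower in OVA. They are transcribed within minutes of a stimulus and include AP-1, EGR and NR4A factors. Of 19 tested 9 fell and 0 rose, with a list median of −0.84, beside 4.28% of all tested genes that fell. The orphan receptor gene Nr4a1 was at 26.2, 19.99 and 23.4 FPKM in Naive and at 2.23, 2.43 and 3.05 FPKM in OVA (−2.95 ± 0.17, limma adjusted p = 0.000778, 6 fits). Klf2, an endothelial and lymphocyte factor, was at 340, 232 and 334 FPKM in Naive and at 37.9, 65.8 and 65.8 FPKM in OVA (−2.43 ± 0.28, limma adjusted p = 0.0111, 4 fits). Egr1 was at 22.4, 9.05 and 12.5 FPKM in Naive and at 2.13, 1.63 and 2.72 FPKM in OVA (−2.43 ± 0.32, limma adjusted p = 0.016, 5 fits). All 3 genes were low in every OVA library.

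The phosphatase gene Dusp1 fell by 1.79, Fos by 1.47, Jun by 1.37, Ier2 by 0.83, Junb by 0.79 and the mRNA decay factor Zfp36 by 0.69 log2 units. Dusp1 was called in 4 fits, Jun in 3, Fos in 1 and the other 3 in 0. Fosl2 and Nr4a2 were not called, at 0.16 and −0.02 log2 units, and Klf6 had overlapping groups. The count was 2 without Naive replicate 1, 1 without Naive replicate 3, 7 without OVA replicate 3 and 5 without each of the other libraries. How the lungs were handled between death and RNA extraction is not described in the labels. The cAMP response element, TGACGTCA, on either strand, was in a promoter of 2 of 16 genes of the list (12.5%). The share of all tested genes with a promoter was 3.33%, and 1 of the 2 was among the 7 called genes that had a promoter.

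Of 16 endothelial genes tested 4 fell and 0 rose, with a list median of −1.13, beside 4.28% of all tested genes that fell. The receptor gene Aplnr was at 51.6, 36.0 and 40.5 FPKM in Naive and at 7.86, 7.83 and 5.06 FPKM in OVA (−2.55 ± 0.22, limma adjusted p = 0.00425, 6 fits). Its ligand Apln was at 36.1, 26.9 and 33.5 FPKM in Naive and at 6.38, 8.92 and 2.12 FPKM in OVA (−2.55 ± 0.43, limma adjusted p = 0.0222, 4 fits). Both were low in all OVA libraries. The surface mucin Emcn fell by 1.84 (4 fits) and the receptor Tie1 by 1.38 log2 units (2 fits). The Notch ligand Dll4, the growth factor gene Pdgfb and the inhibitory factor Id3, from the list of 22 Notch, Wnt and growth factor genes, were the 3 of that list that fell, by 1.48, 1.39 and 1.63 log2 units, in 4, 2 and 4 fits.

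The general endothelial markers Pecam1 and Cdh5 were not called. Cdh5 was at 153, 111 and 193 FPKM in Naive and at 30.8, 98.2 and 73.5 FPKM in OVA, all OVA libraries below Naive and replicate 1 the lowest. Pecam1 was at 37.6, 27.5 and 48.9 FPKM in Naive and at 10.6, 29.3 and 22.2 FPKM in OVA, with OVA replicate 2 inside the Naive range. The 16 listed endothelial genes summed to 800 to 1171 FPKM in Naive and to 269.5, 794 and 525 FPKM in OVA replicates 1, 2 and 3. The von Willebrand factor gene Vwf was at 11.4, 9.56 and 14.2 FPKM in Naive and at 8.83, 24.1 and 20.5 FPKM in OVA. The number of endothelial genes that fell was 1 without Naive replicate 1, 4 without Naive replicate 2, 1 without Naive replicate 3, 3 without OVA replicate 1, 7 without OVA replicate 2 and 3 without OVA replicate 3. Alveolar type 1 and type 2 genes had 0 of 10 and 0 of 12 called, beside 7.68% of all tested genes. Their medians were −0.60 and −0.41, with 9 negative members in each list. Both lists were also low by median in OVA replicate 1, at −1.51 and −1.36 log2 units from the Naive mean. The type 1 marker Ager was at 19.1 FPKM there against 59.9 and 57.8 FPKM in the other OVA libraries and 75.9 to 94.7 FPKM in Naive. Some members were not low there. The type 1 gene Cyp4b1 was at 107 FPKM against 60.96 to 97.45 FPKM in Naive, and the type 2 gene Sftpb at 806 FPKM against 698 to 1655 FPKM. The part of tissue composition in these values was not tested.

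**Figure D4:**
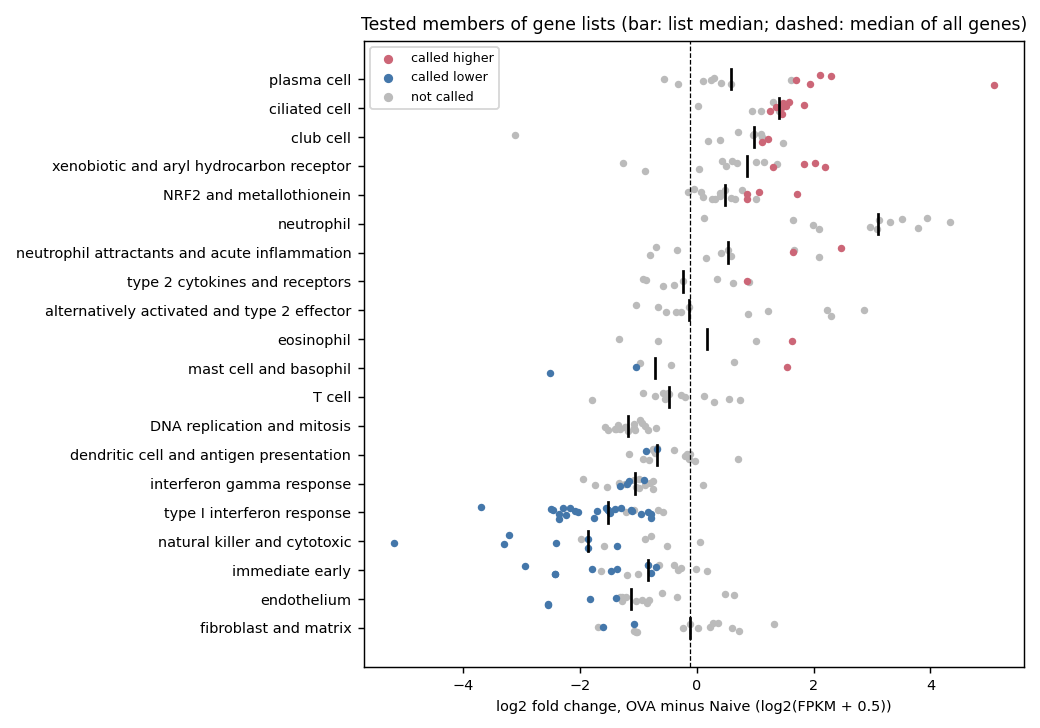
Each point is a tested member of 1 of 20 gene lists, placed by its log2 fold change, OVA minus Naive, with red for called higher, blue for called lower and grey for not called. The bar is the list median and the dashed line the median of all tested genes (−0.11); the neutrophil list has the highest median, 3.11, with 0 genes called.

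Neutrophil genes were very uneven among the OVA libraries. Of 12 tested 0 were called, beside 7.68% of all tested genes, although the list median was 3.11 log2 units. The calcium-binding granulocyte gene S100a8 was at 10.7, 6.71 and 22.6 FPKM in Naive and at 10.9, 619 and 969 FPKM in OVA. S100a9, its partner, was at 20.3, 13.1 and 46.3 FPKM in Naive and at 14.5, 782 and 1076 FPKM in OVA. The neutrophil-expressed resistin-like gene Retnlg was at 4.04, 0.804 and 8.34 FPKM in Naive and at 9.96, 183 and 223 FPKM in OVA. OVA replicate 1 was within or near the Naive range for all 3, while replicates 2 and 3 were far above it. Their limma adjusted p were 0.148, 0.204 and 0.0664. The 14 listed genes summed to 42.4 to 112 FPKM in Naive and to 56.6, 1885 and 3066 FPKM in OVA replicates 1, 2 and 3. Without OVA replicate 1, 10 of the 12 were called higher, beside 180 of all 12586 tested genes in that fit. In each of the other 5 leave-one-out fits 0 were called. OVA replicate 1 was already known to be low for these genes, so leaving it out selects on their values. Csf3r, the receptor for the granulocyte growth factor, was at 2.33, 1.95 and 3.93 FPKM in Naive and at 0.959, 3.15 and 6.89 FPKM in OVA, with overlapping groups.

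Of 11 tested neutrophil attractants and acute inflammation genes 2 rose, beside 3.39% of all tested genes. Cxcl5, an epithelial chemokine for neutrophils, was at 0.113, 0.139 and 0.0369 FPKM in Naive and at 1.31, 1.66 and 8.58 FPKM in OVA (2.47 ± 0.55, limma adjusted p = 0.0384, 2 fits). Ccl20, a chemokine for dendritic cells and lymphocytes, was at 0.0651, 0.434 and 0.319 FPKM in Naive and at 2.47, 1.02 and 2.44 FPKM in OVA (1.65 ± 0.31, limma adjusted p = 0.0277, 2 fits). All OVA libraries, including the one low in neutrophil genes, were above Naive for both. Both genes were below 0.5 FPKM in every Naive library and passed the filter through the OVA libraries alone. That separation was therefore required by the filter. The acute phase gene Saa3 was at 1.04, 1.07 and 1.62 FPKM in Naive and at 2.76, 1.02 and 32.4 FPKM in OVA, high in replicate 3 only. The count was 0 without Naive replicate 1, 0 without Naive replicate 3 and 1 without each of the other libraries.

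The classical type 2 genes showed few differences. Of 18 listed type 2 cytokines and receptors 9 passed the filter, and 1 rose, beside 3.39% of all tested genes. It was Il13ra1, a receptor chain for interleukin 13, at 15.2, 17.2 and 19.1 FPKM in Naive and 25.6, 30.5 and 39.5 FPKM in OVA (0.86 ± 0.20, limma adjusted p = 0.0427, 1 fit). The cytokine gene Il4 was at 0.971, 1.23 and 0.756 FPKM in Naive and at 2.02, 1.35 and 2.00 FPKM in OVA, higher in every OVA library and not called (limma adjusted p = 0.0942). Il13 was at 0.0537, 0 and 0.316 FPKM in Naive and at 0.288, 0.106 and 0 FPKM in OVA, below the filter. Il5 was listed at 0, 0 and 0.0413 FPKM in Naive and at 0, 0.0414 and 0.134 FPKM in OVA, also below the filter.

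Of 11 tested genes of the alternatively activated and type 2 effector list 0 were called, beside 7.68% of all tested genes. Chil3, a chitinase-like protein of macrophages, was at 5.74, 3.61 and 11.0 FPKM in Naive and at 8.81, 49.6 and 246 FPKM in OVA. Retnla, a resistin-like protein, was at 10.2, 21.2 and 30.0 FPKM in Naive and at 78.5, 21.2 and 482 FPKM in OVA. Ccl8, a chemokine gene, was at 5.32, 7.33 and 23.0 FPKM in Naive and at 52.5, 23.5 and 85.4 FPKM in OVA. Ccl8 alone of the 3 had groups that did not overlap, and OVA replicate 3 was highest for each. Arg1, an enzyme of alternatively activated macrophages, was at 0.987, 0.961 and 0.581 FPKM in Naive and at 0.821, 0.461 and 0.551 FPKM in OVA.

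The mucin gene Muc5ac, of mucus-producing goblet cells, was at 0.0165, 0.0297 and 0.0507 FPKM in Naive and at 0.202, 0.0901 and 0.602 FPKM in OVA, higher in each OVA library and below the filter. Muc5b was at 0.0173, 0.910 and 3.53 FPKM in Naive and at 1.73, 1.05 and 26.8 FPKM in OVA, with overlapping groups. The mucus list had 5 tested genes, of which 0 were called, beside 7.68% of all tested genes. Its members were highest together in OVA replicate 3, at 69.9 FPKM summed against 13.8 and 8.30 in the other OVA libraries.

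Eosinophil markers were scarce. Of 10 listed genes 4 passed the filter. Prg2, the major basic protein of eosinophil granules, was at 0.232, 0 and 0.227 FPKM in Naive and at 2.74, 1.37 and 0.820 FPKM in OVA (1.64 ± 0.33, limma adjusted p = 0.0326, 1 fit). Siglecf was at 0.280, 0.289 and 0.377 FPKM in Naive and at 0.0885, 0.0486 and 0.216 FPKM in OVA, and Epx was listed at 0 in all 3 OVA libraries. These markers did not move together.

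Mast cell proteases went in both directions. The chymase gene Cma1 was at 2.84, 2.08 and 3.66 FPKM in Naive and at 0.128, 0.118 and 0 FPKM in OVA (−2.51 ± 0.21, limma adjusted p = 0.00425, 6 fits). Mcpt4, another mast cell chymase, was at 2.69, 2.03 and 2.40 FPKM in Naive and at 5.02, 13.4 and 7.07 FPKM in OVA (1.55 ± 0.32, limma adjusted p = 0.0326, 2 fits). The groups did not overlap for either. The stem cell factor receptor Kit fell by 1.05 log2 units (limma adjusted p = 0.0364, 1 fit), and the carboxypeptidase Cpa3 was at 3.29, 2.18 and 3.33 FPKM in Naive and at 0.677, 1.93 and 1.27 FPKM in OVA and was not called. Of 6 tested genes of the list, 1 rose and 2 fell, beside 3.39% and 4.28% of all tested genes.

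Other genes of large fold change belonged to none of the groups above. Nrep, a regulator of neuronal regeneration that is also found in fibroblasts, was at 32.6, 32.8 and 32.7 FPKM in Naive and at 4.46, 3.98 and 3.14 FPKM in OVA (−2.94 ± 0.16, limma adjusted p = 0.000704, 6 fits). The sulfotransferase gene Sult1d1 was at 0.653, 3.35 and 8.97 FPKM in Naive and at 15.9, 41.6 and 37.4 FPKM in OVA (3.09 ± 0.72, limma adjusted p = 0.0429, 0 fits). Serpina3n, a serine protease inhibitor with near-identical copies, was at 9.19, 7.75 and 9.62 FPKM in Naive and at 25.6, 35.3 and 162 FPKM in OVA (2.52 ± 0.60, limma adjusted p = 0.047, 2 fits). Nrep was uniform within each group, while Sult1d1 and Serpina3n varied several-fold within one.

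Among circadian clock genes 1 of 17 rose and 2 fell, beside 3.39% and 4.28% of all tested genes. Npas2, a partner of BMAL1, was at 0.511, 0.302 and 0.208 FPKM in Naive and at 1.42, 1.60 and 1.97 FPKM in OVA (1.37 ± 0.19, limma adjusted p = 0.0175, 5 fits). Hlf, an output factor of the clock, was at 4.13, 6.06 and 7.51 FPKM in Naive and at 1.92, 2.30 and 1.55 FPKM in OVA (−1.38 ± 0.23, limma adjusted p = 0.0215, 4 fits). Ciart, a repressor in the clock, fell by 1.00 log2 unit (limma adjusted p = 0.0328, 0 fits). Both groups were collected on day 28, and the labels do not give the hour.

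The series title names the nuclear receptor Esrrg and the phosphodiesterase Pde3b. Esrrg was at 0.126, 0.203 and 0.193 FPKM in Naive and at 0.338, 0.348 and 0.468 FPKM in OVA. It was higher in every OVA library and below the filter. Tested with no filter, its log2 fold change was 0.39 ± 0.10 and its limma adjusted p 0.0902. Pde3b, which degrades cAMP, was at 2.75, 2.52 and 3.03 FPKM in Naive and at 2.68, 3.41 and 4.49 FPKM in OVA, with overlapping groups (0.28 ± 0.19, limma adjusted p = 0.396). Of 13 phosphodiesterase genes tested 1 was called, a share close to the 7.68% of all tested genes. It was the cGMP-degrading Pde5a, at 16.1, 13.9 and 18.3 FPKM in Naive and at 4.92, 6.89 and 6.81 FPKM in OVA (−1.31 ± 0.18, limma adjusted p = 0.0175, 4 fits).

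**Figure D5:**
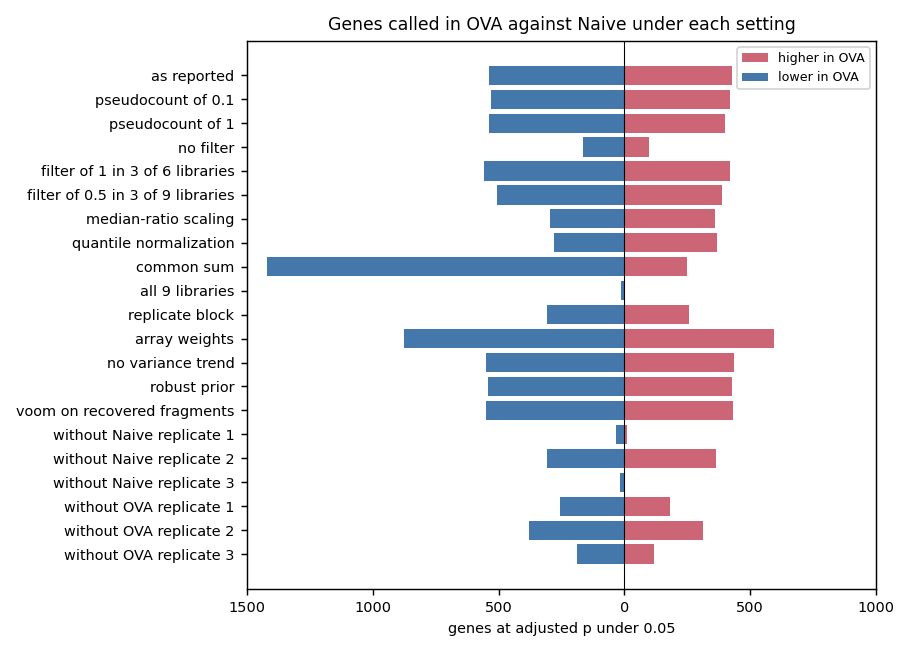
Number of genes at a limma adjusted p under 0.05, with genes higher in OVA to the right and genes lower to the left, as reported and under each alternative. The count was 966 as reported, 46 without Naive replicate 1, 23 without Naive replicate 3, 15 with all 9 libraries in the fit and 1672 with libraries brought to a common sum.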

How the data were processed

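Lung mRNA was measured in 9 libraries, 3 each of Naive, OVA and OVA+PM2.5; the comparison used the first 2 groups. Per the labels, RNA was extracted with Trizol, selected by poly(A) and made into libraries with the NEBNext Ultra kit. The authors deposited FPKM per gene, on GRCm39 per the submitters' processing notes. The software for alignment and quantification was not given in the sources used here. In all, 21884 genes were listed, of which 13078 were named in the file, 8728 by identifier from a reference of another build and 78 had no symbol. Of them, 4036 were at 0 in the 6 libraries.

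Genes at 0.5 FPKM or more in at least 3 of the 6 libraries were kept and tested as log2(FPKM + 0.5) with limma 3.58.1 in R 4.3.3 (variance trend, 4 residual degrees of freedom and a median prior of 3.73), with Benjamini-Hochberg adjustment and a threshold of 0.05. The log2(value + pseudocount) scale understates the change of low genes. The smallest p of an exact permutation test of 3 against 3 is 0.1. Every one of the 17298 genes detected in 2 or more libraries had FPKM steps that came out as whole fragments (100%, tolerance 0.001), and these fragments were used for depth, for a voom fit that called 980 genes and for a search for duplicate libraries. No duplicate was found: even between Naive replicates 2 and 3, the most similar pair, the chi-square of a gene averaged 39.15. On data simulated for this comparison, with 200 of 12586 genes changed, limma found 46.2% of changes of 1 log2 unit and 87.8% of changes of 2, with a mean of 6.15 false calls over 20 draws. The simulated noise was independent between genes, without the differences that many genes of a library share here. The rates need not hold for the real libraries.

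Members and gene lists were chosen with earlier results of these data known. Named genes were the 14 of largest fold change in each direction among called genes with a mean FPKM of at least 1 and non-overlapping groups, the 2 smallest p of each list, Esrrg, Pde3b, and 6 genes of thymus and neutrophils. Other genes named were members of the lists, chosen after their values had been seen. Some genes chosen by this rule are not reported here. Python 3.11.15 (numpy 2.4.6, pandas 2.3.3, scipy 1.17.1, matplotlib 3.10.9) did the rest. The alternatives tried were other pseudocounts, filters, scalings and variance settings, all 9 libraries in 1 fit, a replicate block and leaving out each library.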

Additional observations from a re-analysis of the deposited data

How the results depend on the processing

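As reported, 966 genes were called, 427 higher and 539 lower, and 4292 had groups that did not overlap. With no filter the calls were 263, with 99 higher and 164 lower. With each library brought to a common sum they were 1672, with 250 higher and 1422 lower. With all 9 libraries in the fit they were 15, with 3 higher and 12 lower. With array weights they were 1470, of which 877 were lower. Lower genes numbered 296 after median-ratio scaling and 280 after quantile normalization. Leaving out 1 library gave 23 to 693 calls, 4 to 365 higher and 19 to 381 lower. The cause of these changes was not tested.

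Called genes kept their direction in every alternative in which they were tested. Their groups did not overlap, so leaving out a library or changing the pseudocount, filter or variance setting could not reverse a direction. The pseudocounts, the filter of 1 FPKM and the filter over 9 libraries gave 895 to 976 calls. The fits without a trend or with a robust prior and the voom fit gave 972 to 988. Replicate numbers are shared between the groups, and same-numbered libraries deviated from their group means with correlations of 0.156, −0.169 and 0.071. Differently numbered pairs had −0.29 to 0.298. With means of only 3 libraries, these values cannot decide whether the numbers pair the samples. With a replicate block the calls were 565, with 256 higher and 309 lower. Genes of very low FPKM, such as Il13, Il5 and Muc5ac, rest on few fragments, and 3 libraries a group limit every count.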

Other observations

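Transcripts encoded in mitochondria and nuclear genes of respiratory complex I lay on opposite sides of 0. All 12 mitochondrial genes tested had positive fold changes, with a median of 0.83, beside 36.9% positive among all tested genes. Of the 12, 0 were called, beside 7.68% of all tested genes. Of 38 complex I genes, 0 were positive and 3 were called lower, beside 4.28% of all tested genes, with a median of −0.41. Small falls were not particular to complex I. Cytosolic ribosomal proteins had 74 of 79 genes negative (median −0.36) and mitochondrial ribosomal proteins 70 of 77 (median −0.33). The median of the genes encoded in mitochondria was 0.43 when each library was brought to a common sum and 0.93 after median-ratio scaling, and 0.48 without OVA replicate 1. These genes summed to 33510 to 41950 FPKM in Naive and to 102300, 65010 and 44280 FPKM in OVA replicates 1, 2 and 3.

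The solute carrier family had 20 of 224 tested members called higher and 6 called lower, beside 3.39% and 4.28% of all tested genes, with 4 higher and 10 lower when each library was brought to a common sum, and 0 of either without Naive replicate 1 or without Naive replicate 3.

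Globin transcripts of red cells varied between libraries. The 10 listed erythrocyte genes summed to 1209 to 2495 FPKM in Naive and to 420, 1539 and 326 FPKM in OVA replicates 1, 2 and 3. Of 8 tested genes 1 was called lower, beside 4.28% of all tested genes. It was Hba-a2, called in 1 of the 6 leave-one-out fits. It has a near-identical copy.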
